A study of Mus musculus with 16 samples.

Results

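Transcripts of 10 genes of the bone morphogenetic protein (BMP) pathway were followed in single-cell RNA sequencing of chimaeric mouse embryos. The genes were chosen by name from the 29453 genes of the deposited count matrix and comprised 4 ligands, *Bmp2*, *Bmp4*, *Bmp5* and *Bmp7*, and 6 response genes, *Id1*, *Id2*, *Id3*, *Smad6*, *Smad7* and *Msx2*. Chimaeras were made by injecting *Stat3* null, tdTomato-expressing CD1 embryonic stem cells into wild-type (WT) CD1 blastocysts, and cells of the embryos were sorted by tdTomato. The stages, in embryonic days (E), were E7.5, E8.5 and, last, E9.5. *Stat3* encodes a transcription factor activated by cytokine receptors. Sorted cells were captured in droplets in 16 libraries, with 2 per genotype for each of the 2 earlier stages and 4 per genotype for E9.5.

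In all comparisons "null" means tdTomato-positive cells descended from injected *Stat3* null stem cells, and "WT" means tdTomato-negative cells of the host blastocyst. Both therefore developed within the same chimaeras, beside each other, and the null cells alone carried the tdTomato transgene and a history in culture. By the study's account the null allele lacked exons near the end of *Stat3*. Embryos of E7.5 were grouped by size into large and small and then pooled, and those of E8.5 were pooled before sorting. The 2 libraries of a genotype at E7.5 may thus differ in embryo size, and no size group could be read from their names. For E9.5 the study used 2 embryos, processed individually. By that account the 4 libraries of a genotype at E9.5 are not 4 separate embryos. The SDs and p-values measure the spread between libraries and not between embryos. Libraries are called A to D within each stage and genotype, in the order of their names, which carry no link between null and WT. Cell types are the annotation the study transferred from a reference atlas.

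BMP ligands are secreted members of the TGF-β superfamily that bind paired type I and type II serine/threonine kinase receptors. The receptors phosphorylate SMAD1, SMAD5 and SMAD9, which enter the nucleus with SMAD4 and switch on direct target genes, among them the *Id* genes, inhibitors of basic helix-loop-helix factors, and *Smad6* and *Smad7*, which feed back to inhibit the receptors. In the gastrulating and early organogenesis mouse embryo BMP signals from extra-embryonic tissue and lateral mesoderm pattern the mesoderm, and BMP signals from the roof plate and surface ectoderm pattern the dorsal neural tube and induce neural crest.

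SMAD proteins are known to bind short DNA sequences, and 2 promoter stretches that hold such letters are shown because they differ in kind: the palindrome GTCTAGAC, in which the SMAD-binding tetramer GTCT meets its reverse complement, and the GC-rich element GGCGCC, associated with BMP-activated SMADs. Promoter sequence, 250 bases before to 50 bases after the gene start, came from RefSeq (GRCm38.p6), and 6 of the 10 genes were searched: *Bmp4*, *Bmp5*, *Id2*, *Id3*, *Smad6* and *Msx2*. *Bmp2*, *Bmp7* and *Id1* had no entry. *Smad7* was left out of the search, so whether its promoter holds either element was not examined. Positions are counted from the start in that table, 64022059 for *Smad6* and 25096092 for *Id2*, the latter inside the longer *Id2* span that the GENCODE annotation gives. Capitals mark the element in each stretch, written 5′ to 3′ on the strand of the gene.
Smad6, chr9:64022056-64022159, minus strand, bases -100 to 4: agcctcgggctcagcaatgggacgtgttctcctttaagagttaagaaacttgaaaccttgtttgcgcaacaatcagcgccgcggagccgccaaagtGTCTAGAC
Id2, chr12:25096254-25096342, minus strand, bases -250 to -162: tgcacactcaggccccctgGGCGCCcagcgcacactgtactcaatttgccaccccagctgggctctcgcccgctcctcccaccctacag
The *Smad6* palindrome spanned the gene start, and its 2 GTCT tetramers, 1 on each strand, began at -4 and 1. Among the 6 searched promoters it was found in *Smad6* alone, and 70 of all 32851 promoters of the table (0.213%) held it. GGCGCC was found in *Id2* alone of the 6, at -231, and in 3898 of all promoters (11.9%). The bare tetramer GTCT, searched on both strands, was present in all 6 but also in 88.0% of all promoters. These matches describe letters in this window and no binding was measured.

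Of 41832 cells in the matrix, 37841 in 87 cell types were used after 3395 called doublets and 596 WT-sorted cells with a tdTomato transcript were left out. The 1018 null-sorted cells without a tdTomato UMI were kept as null. Without them 5 types in place of 7 could be tested between genotypes at E7.5, and 15 in place of 20 at E8.5. Libraries held 360 to 4327 cells and 20682659 to 138613245 unique molecular identifiers (UMIs), and the median UMIs per cell ran from 18205 in E8.5 WT B to 57791.5 in E7.5 null B. Of the 37351 barcodes, 488 occurred in more than 1 library, which involved 978 cells. *Stat3* was measured at 1.16 to 2.53 CPM (UMIs of a gene scaled to a common library total) in the null libraries and 6.14 to 9.31 CPM in the WT libraries with no overlap; the 3′ tags counted here may lie outside the deleted exons. Markers of 25 checked cell types lay above the median of the other types, except *Tbx18* in YS mesothelium, at 0 in the E9.5 WT libraries and the E8.5 null libraries, and *Pax3* in Sclerotome at E9.5. Some types were checked only with a list of related types. Mesenchyme was checked with lateral plate mesoderm markers, and Placodal ectoderm, Limb ectoderm and Epidermis with 1 surface ectoderm list. Dorsal hindbrain progenitors were not checked in this way, nor were other types named below, among them Cranial mesoderm, Optic vesicle, Pharyngeal endoderm and Thyroid primordium.

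Levels in WT cells were compared between cell types with more than 15 cells in every WT library of the stage, which left 11 types for E7.5, 36 for E8.5 and 25 for E9.5, and all levels are CPM of the UMIs of 1 type in 1 library. Labels were themselves transferred from expression, so the order of the types is a description. *Bmp4*, the ligand required for mesoderm formation and for allantois and germ cell precursors, lies on GRCm38 chromosome 14 (46383520 to 46390669, minus strand). At E7.5 it was measured at 241 and 212 CPM in Mesenchyme and at 249 and 192 in Lateral plate mesoderm, ranges that overlapped, and at 107 and 136 in ExE ectoderm. At E8.5 Mesenchyme stood highest with 254 CPM in both libraries, above Lateral plate mesoderm at 185 and 190 and YS mesothelium at 171 and 148. At E9.5 Mesenchyme was again highest, at 173, 164, 204 and 171 CPM (178 ± 17.8, SD over 4 libraries). Its range lay above that of the next type, Embryo proper mesothelium, at 116 ± 27.3. Below it Limb mesoderm (97.4 ± 15.4), Pharyngeal mesoderm (92 ± 17.3) and Cardiopharyngeal progenitors FHF (75.5 ± 24.2) overlapped one another, and the lowest type was EMP at 2.15 ± 1.73.

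*Bmp5* shared the highest type of *Bmp4* at all 3 stages, *Bmp2* at E8.5 and E9.5, and *Bmp7* at none. This order rests on single libraries for *Bmp2* at E9.5, where the highest type was Epidermis without WT A, B or D. At E8.5, leaving out WT A raised the types compared from 36 to 53. The highest was then Epidermis for *Bmp2* and Cardiomyocytes FHF 2 for *Bmp5*, types outside the 36. Among the 36 types Mesenchyme stayed highest in E8.5 WT B, with 99.8 CPM of *Bmp2* and 31.7 of *Bmp5*. *Bmp2*, which acts in heart, amnion and chorion formation (chromosome 2, 133552159 to 133562885, plus strand), stood highest at E7.5 in Visceral endoderm with 120 and 107 CPM, above Mesenchyme with 95.1 and 77.4. At E8.5 its highest type was Mesenchyme, with 137 and 99.8 CPM, and the next was YS mesothelium with 39.3 and 39.9. At E9.5 *Bmp2* was at 44.3, 30.7, 35.4 and 64 CPM in Mesenchyme and at 25.2, 18.8, 80.8 and 38.6 in Epidermis, whose ranges overlapped, while Epicardium followed at 11.2 ± 4.32 and the means of the other 22 types lay under 3 CPM. *Bmp5* (chromosome 9, 75775364 to 75900310, plus strand) was highest in Mesenchyme at all 3 stages, with 23.9 and 16.9 CPM, then 31.1 and 31.7, and at E9.5 30.9, 30.7, 32.6 and 29.3. At E7.5 Mesenchyme overlapped with Lateral plate mesoderm (8.74 and 19.6), which stood above it in WT B. Without E7.5 WT A 18 types in place of 11 were compared, and the highest was Cardiopharyngeal progenitors SHF, a type outside the 11. Late dorsal forebrain progenitors came next at E9.5 with 17.3, 19.1, 18.2 and 18.1 CPM, below every Mesenchyme library. *Bmp7* (chromosome 2, 172868012 to 172940321, minus strand), a ligand of ectoderm, kidney and eye development, had no single highest tissue. Its highest types were Paraxial mesoderm at E7.5 (38.6 and 30.3 CPM), Limb ectoderm at E8.5 (47.8 and 52.3) and Epidermis at E9.5 (74.3, 73.5, 57.2 and 51.5). Limb ectoderm overlapped with Cardiopharyngeal progenitors SHF (21.7 and 61.1), and Epidermis with Late dorsal forebrain progenitors at 45.5 ± 11.8. With more than 50 cells required the highest *Bmp7* type was Lateral plate mesoderm, Pharyngeal endoderm and Limb mesoderm in stage order. Without E8.5 WT A, with 53 types in place of 36, it was Cardiomyocytes SHF 2 at E8.5, a type outside the 36.

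The 3 *Id* genes had a mean of 10 CPM or more over libraries in all 25 types at E9.5, where they were highest in Dorsal hindbrain progenitors. *Id1* (chromosome 2, 152736251 to 152737410, plus strand) was at 525 and 520 CPM in Non-neural ectoderm at E7.5 and at 788 and 800 in Branchial arch neural crest at E8.5, in both cases above every other type. At E9.5 *Id1* was highest in Dorsal hindbrain progenitors with 525, 418, 499 and 402 CPM, overlapping with Branchial arch neural crest at 345 ± 62.3. *Id2* (chromosome 12, 25093799 to 25097140, minus strand) was highest in ExE ectoderm at E7.5 with 961 and 659 CPM, well above Non-neural ectoderm with 162 and 134. In Dorsal hindbrain progenitors *Id2* reached 642 and 459 CPM at E8.5 and then 483, 584, 578 and 477 CPM, the highest level of both stages, although Foregut at E8.5 and Epicardium at E9.5 overlapped with it. *Id3* (chromosome 4, 136143497 to 136145755, plus strand) had no clear highest type at E7.5, where Non-neural ectoderm (587 and 565 CPM) overlapped with Visceral endoderm (710 and 324), the highest type without WT B. Without WT A 18 types in place of 11 were compared, and the highest was Cardiopharyngeal progenitors SHF, a type outside the 11. *Id3* was highest in Dorsal hindbrain progenitors afterwards, at 1235 ± 46 CPM at E8.5 and 1157 ± 156 at E9.5, and at E9.5 it overlapped with Late dorsal forebrain progenitors at 1101 ± 319. Erythroid cells were lowest at E9.5 for all 3 genes, at 12.5 ± 5.03 CPM for *Id1*, 10.7 ± 1.71 for *Id2* and 20.3 ± 2.03 for *Id3*.

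The inhibitory SMADs and *Msx2*, a homeobox target of BMP, were highest in mesodermal types at E7.5 and E9.5, and at E8.5 in Allantois or Amniotic ectoderm. *Smad6* (chromosome 9, 63953076 to 64022059, minus strand), whose start carries the palindrome printed above, was highest in Mesenchyme at E7.5 (28.7 and 31.7 CPM), in Allantois at E8.5 (28.6 and 29.7) and in Epicardium at E9.5 (35.8, 29, 28 and 23.1). At E7.5 Lateral plate mesoderm (31.1 and 24.7) overlapped with Mesenchyme and was the highest type without E7.5 WT B. At E9.5 only Epicardium and Mesenchyme had a mean of 10 CPM or more of *Smad6*, and their ranges overlapped. *Smad7*, which also inhibits TGF-β receptors, was highest in Mesenchyme at E7.5 (126 and 115 CPM), overlapping with Lateral plate mesoderm (116 and 101), and in Amniotic ectoderm at E8.5 (107 and 94.6), where Allantois (88.1 and 109) overlapped with it. It was broader, with a mean of 10 CPM or more in 23 of the 25 types at E9.5 and its highest levels in Epicardium (77.5, 128, 103 and 83.1) and Mesenchyme (76.9, 102, 101 and 98.8). *Msx2* (chromosome 13, 53466884 to 53473074, minus strand) was highest in Lateral plate mesoderm at E7.5 (93.2 and 82 CPM), in Amniotic ectoderm at E8.5 (192 and 178) and in Mesenchyme at E9.5 (58.4, 99.8, 74.4 and 61.1). Dorsal hindbrain progenitors (62.3 ± 14.8) and Epidermis (50.3 ± 14.8) overlapped with Mesenchyme for *Msx2* at E9.5. Without E9.5 WT C 32 types in place of 25 were compared. The highest was then Surface ectoderm for *Msx2* and Allantois for *Smad6* and *Smad7*, types outside the 25. With more than 50 cells required, which left 9 types, it was Dorsal hindbrain progenitors for *Msx2* and Limb mesoderm for *Smad6* and *Smad7*.

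**Figure D1:**
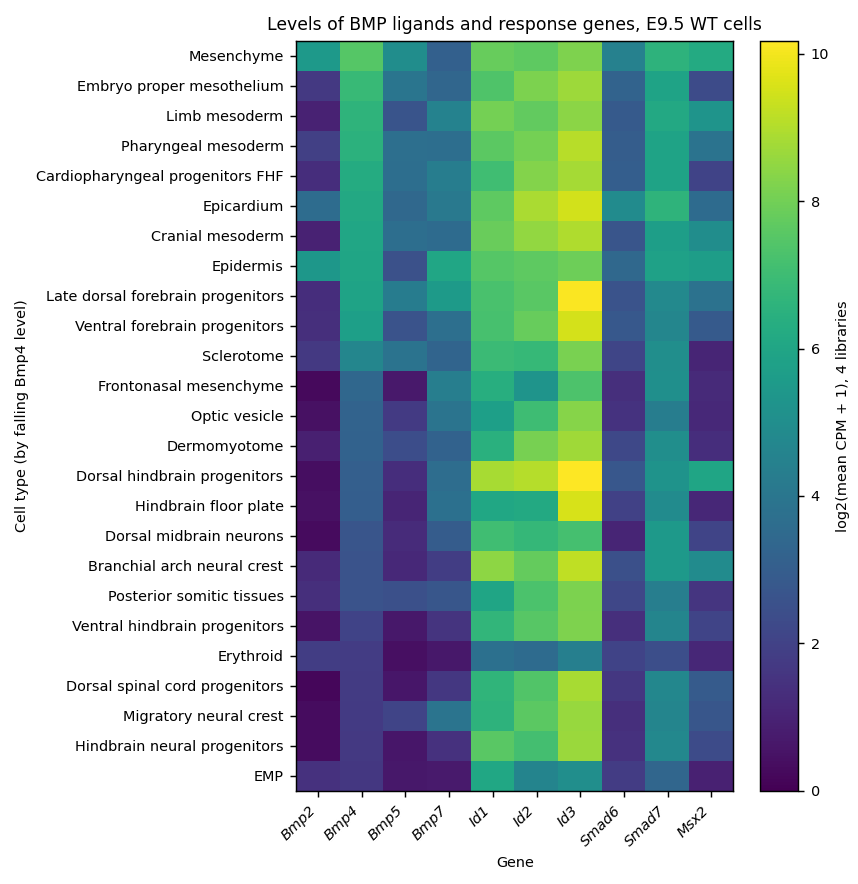
Each cell of the map gives the mean level of 1 gene (x axis) in 1 of 25 cell types (y axis, ordered by falling *Bmp4*) over the 4 E9.5 WT libraries, coloured on a log2(mean CPM + 1) scale. Mesenchyme, the top row, is highest for *Bmp4* (178 CPM), *Bmp5*, *Bmp2* and *Msx2*, while *Id3* is brightest in Dorsal hindbrain progenitors (1157 CPM).

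How far each gene was restricted differed. At E9.5 the highest type stood 32.8 times above the median type for *Bmp2*, 21.1 times for *Bmp4* and 18.4 times for *Msx2*, and 2.73 to 3.52 times for *Id1*, *Id2*, *Id3* and *Smad7*. Likeness across the 25 types was measured as Pearson's r of mean log2(CPM + 1), a description over types that share the same 4 libraries. Genes with a mean of at least 10 CPM in at least 1 of these types were compared, without predicted, ribosomal and mitochondrial genes. Those most like a member included other members for *Bmp4*, *Bmp5*, *Id1* and *Msx2*. *Bmp4* was most like the protocadherin *Pcdh7* (r = 0.909), *Bmp5* (0.868) and *Wdr86* (0.843). *Bmp5* was most like *Bmp4*, *Maged2* (0.860) and *Rcn3* (0.850). *Id1* was most like *Smad7* (0.792), *Arid5b* (0.785) and *Id2* (0.776), and *Msx2* was most like its paralogue *Msx1* (0.840), *Id1* (0.755) and the BMP pseudoreceptor *Bambi* (0.700). *Smad6* was most like *Bambi* (0.871), *Rras2* (0.849) and the mesothelial gene *Upk3b* (0.843), *Smad7* was most like *Usp47* (0.914), *Tceal9* (0.913) and *Arid5b* (0.912), and *Bmp2* was most like *Cryab* (0.904), *Cpz* (0.897) and *Krt19* (0.891). For *Bmp7* the 3 genes were *Plxdc2* (0.83), *Flywch2* (0.818) and *Wdsub1* (0.808), for *Id2* *Ptn* (0.894), *Plekhg2* (0.875) and *Tnks1bp1* (0.857), and for *Id3* *Gucy1a2* (0.906), *Phc1* (0.905) and *Sclt1* (0.905). Between ligands and response genes r ranged widely, from 0.796 for *Bmp4* with *Smad6* to -0.073 for *Bmp2* with *Id3*.

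The first question was whether loss of *Stat3* changed these genes within cell types. UMIs were summed per library and type, and types were tested if at least 2 null and 2 WT libraries held over 15 of their cells. The test was edgeR's quasi-likelihood test, with Benjamini-Hochberg adjustment over all genes of the type. A gene was called where the adjusted p was under 0.05 and the log2 fold change exceeded 1 in size. No member was called: 0 of 57 tests of a member in a type at E7.5, where 0.186% of tests over all genes were called, 0 of 143 at E8.5 (0.0609%) and 0 of 262 at E9.5 (0.12%). At an unadjusted p under 0.05 stood 5, 13 and 34 of these tests, or 8.77%, 9.09% and 13%, against 4.06%, 4.32% and 6.26% over all genes. By adjusted p alone, without the fold requirement, 2 tests passed, both at E9.5 in Placodal ectoderm (0.763% of member tests, against 0.271% over all genes), and DESeq2 called 0, 1 and 0 at the 3 stages.

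To set aside the mix of cell types, log2(CPM + 1) was averaged per library over the types present in every library of its stage, 7 types for E7.5 and 20 each for the later stages, and tested with limma across all 16 libraries with stage as a term. None of the 10 members passed an adjusted p of 0.05 (4.09% of 11210 genes did). *Bmp4* had the lowest p. Its averaged level was 4.65 and 4.86 in WT against 4.66 and 4.43 in null at E7.5. It was 4.28 and 4.26 against 4.19 and 3.85 at E8.5, and 4.08, 3.70, 3.82 and 4.17 against 3.97, 3.58, 3.85 and 3.52 at E9.5. The null libraries were lower on average at each stage (by 0.21, 0.25 and 0.22 on the log2 scale), but the ranges overlapped at E7.5 and E9.5. The difference was -0.22 (SE 0.079, 95% interval -0.39 to -0.06, limma adjusted p = 0.122), with p = 0.031 before adjustment by the exact two-sided permutation of genotypes within stages. *Smad7* differed by -0.12 (SE 0.057, 95% interval -0.24 to -0.002, adjusted p = 0.246, exact permutation p = 0.086), and at E9.5 its level was 5.23, 5.32, 5.25 and 5.03 in WT and 5.07, 5.12, 5.09 and 4.91 in null. *Id2* differed by -0.42 at E7.5, with 2 libraries of each genotype, by -0.07 at E8.5 and by 0.10 at E9.5, and by -0.07 over the stages. Over the stages, the differences of the 8 members other than *Bmp4* and *Smad7* lay between -0.09 (*Bmp2*) and 0.11 (*Msx2*), with adjusted p of 0.495 to 0.921 and exact permutation p of 0.190 to 0.859.

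**Figure D2:**
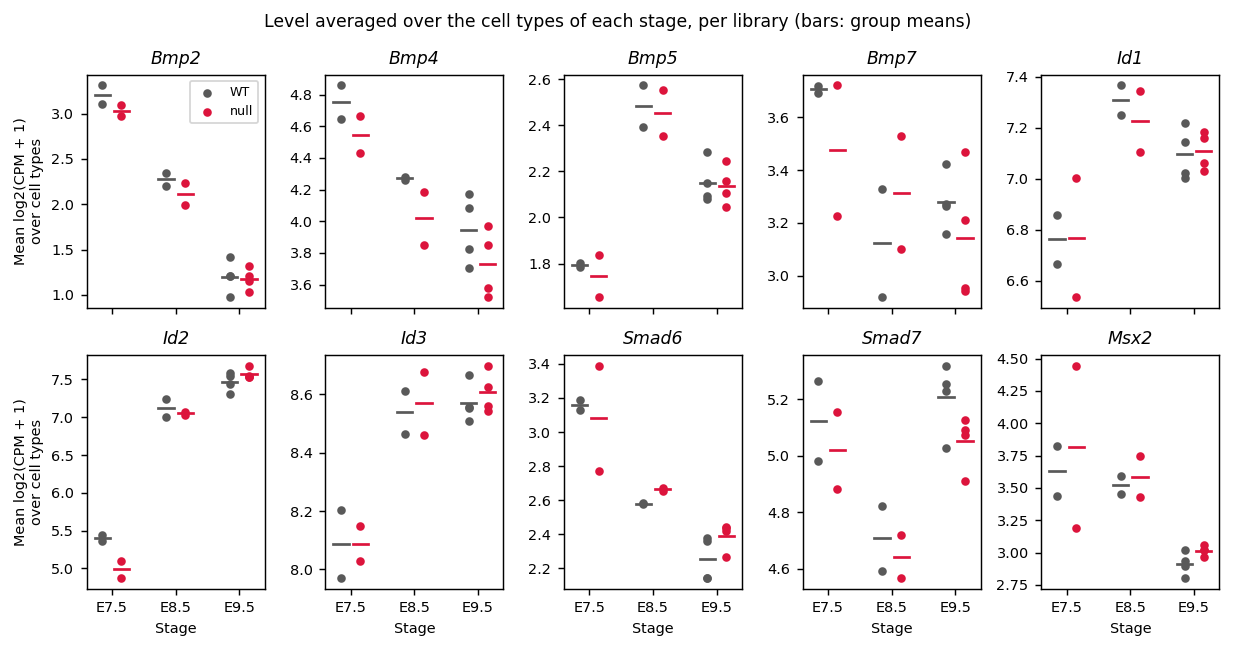
Each point is 1 library's level of a gene, averaged over the cell types of its stage as log2(CPM + 1) (y axis, a separate range for each gene that does not start at 0), for WT (grey) and *Stat3* null (red) at each stage (x axis), with bars at the group means. *Bmp4* means are lower in null at each of the 3 stages, by 0.21 to 0.25, and stages are not to be compared because they average different cell types.

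Within types at E9.5 the direction over types was mixed for every gene. *Id2* was higher in null in 27 of 37 types (median log2 fold change 0.11), *Id3* in 25 of 37 (0.07) and *Smad6* in 11 of 16 (0.17). *Bmp7* was lower in 18 of 26 types (-0.14), *Smad7* in 26 of 37 (-0.10), *Bmp4* in 17 of 30 (-0.11) and *Bmp2* in 5 of 8 (-0.24). *Id1*, *Bmp5* and *Msx2* were lower in 16 of 37, 7 of 12 and 12 of 22 types, and the median over all genes was near 0. Types share libraries, so these counts describe direction only.

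**Figure D3:**
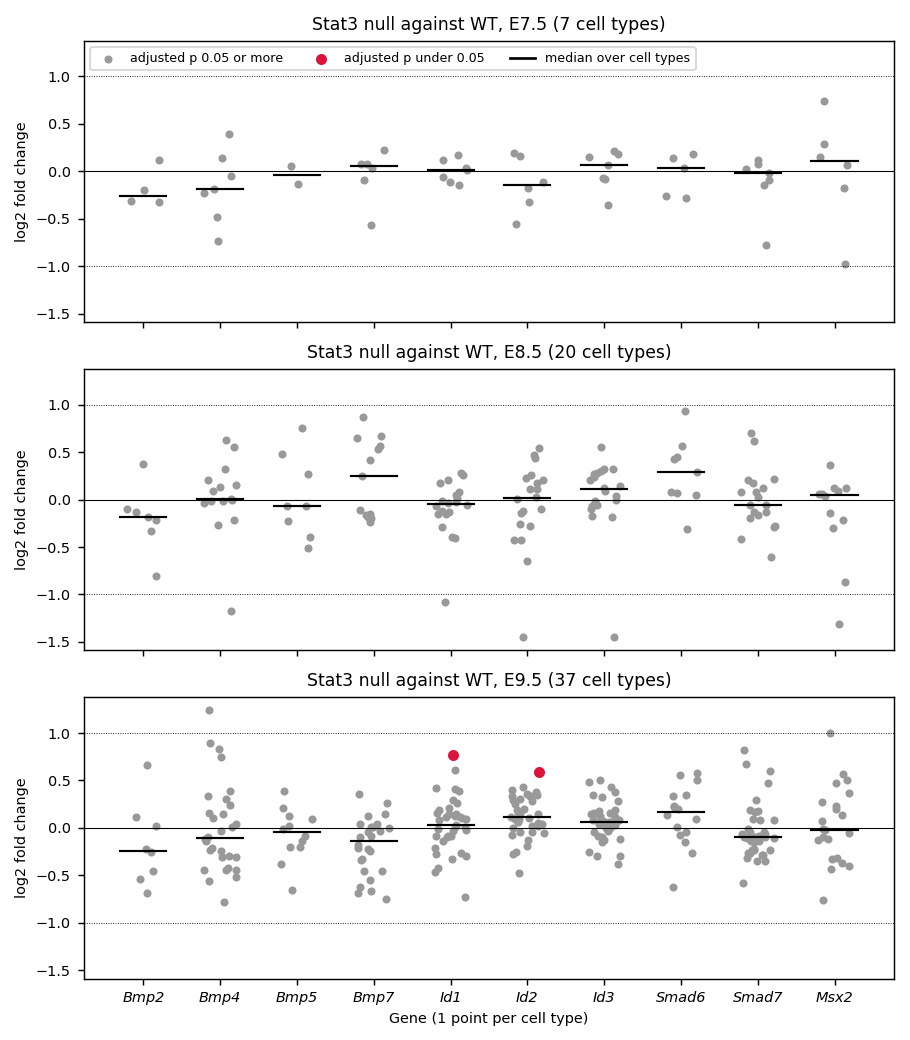
Each point is the log2 fold change of null against WT (y axis) of 1 gene (x axis) in 1 cell type, with a panel for each stage, the earliest on top, with bars at the median over types and dotted lines at a change of 1. The 2 red points, *Id1* and *Id2* in Placodal ectoderm at E9.5, are the tests with an adjusted p under 0.05, and both lie within the dotted lines.

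Placodal ectoderm at E9.5, the thickened head ectoderm that gives rise to sense organs, held both tests. *Id1* was at 136 and 193 CPM in WT and at 307 and 254 in null, which did not overlap (a log2 change of 0.77, SE 0.15, adjusted p = 0.00506 by edgeR). *Id2* was at 160 and 167 CPM in WT and at 251 and 247 in null, also without overlap (0.59, SE 0.14, edgeR adjusted p = 0.0276). With 2 libraries against 2, the genotypes did not overlap in 34.5% of the tests over all genes in this type. Over all types at E9.5, most with more libraries, they did not overlap in 27 of 262 member tests (10.3%) and in 9.51% of tests over all genes. *Smad7* was at 34.6 and 36.6 CPM against 62.9 and 47.0 (0.67, adjusted p = 0.477). *Bmp4* was at 53 and 62.1 CPM in WT and at 200 and 40 in null, so that the 2 null libraries lay on either side of WT (1.24, adjusted p = 0.973); without null B the change was 1.78 and without null A -0.52, values that each rest on 1 null library. These libraries had 25 and 29 cells (WT A and D) and 73 and 17 (null A and B). The summed surface ectoderm markers were at 1385 and 1369 CPM in WT and 1409 and 1482 in null, the erythroid markers at 94.1 and 68.7 against 4.52 and 0, and the 53 markers of all lists but the 2 blood lists at 2527 and 2521 against 2519 and 2690.03. The part of the erythroid transcripts in the 2 results was not tested. DESeq2 gave adjusted p of 0.182 for *Id1* and 0.693 for *Id2*. With all libraries of the type in 1 fit *Id1* had an adjusted p of 0.920 and *Id2* of 0.0350, and in that fit *Id2* rose to 0.0530 without null B, 0.154 without null A, 0.211 without WT D and 0.385 without WT A.

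**Figure D4:**
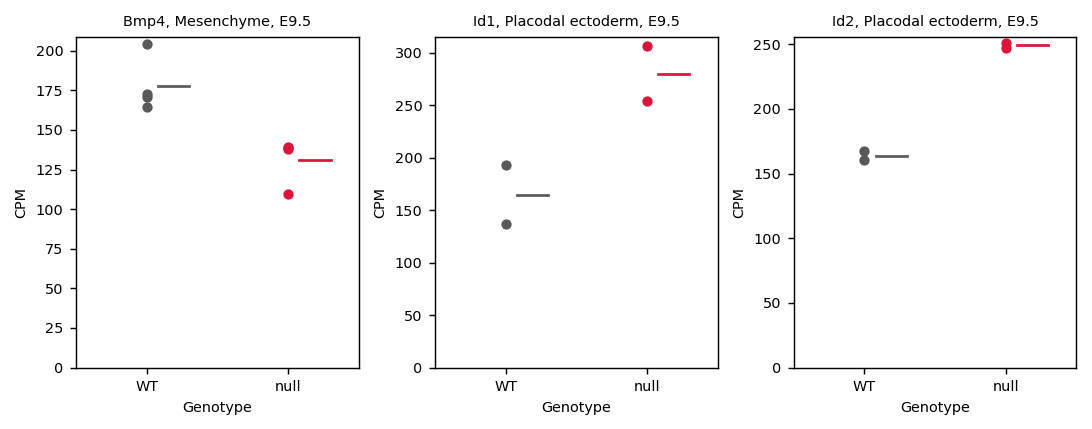
Points are the CPM (y axis, from 0) of *Bmp4* in Mesenchyme and of *Id1* and *Id2* in Placodal ectoderm in the E9.5 libraries of WT (grey) and *Stat3* null (red) cells that held over 15 cells of the type, 4 against 4 in Mesenchyme and 2 against 2 in Placodal ectoderm, with bars at the means. In each of the 3 panels, taken for their low p, the genotypes do not overlap, with *Bmp4* lower (109 to 139 against 164 to 204 CPM) and both *Id* genes higher in null. Over all genes the genotypes did not overlap in 34.5% of tests in Placodal ectoderm and in 9.51% over all types at E9.5.

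In Mesenchyme, the type with the highest *Bmp4*, the null level at E9.5 lay below WT in every library. WT libraries had 173, 164, 204 and 171 CPM and null libraries 139, 109, 138 and 139 (a log2 change of -0.42, SE 0.10, adjusted p = 0.12 by edgeR). The difference did not pass the adjusted threshold, and its adjusted p was 0.0065 with no filter on low counts, where the change still lay under 1 in size, 0.108 by DESeq2 and 0.575 with more than 50 cells required (-0.29). Erythroid markers there summed to 90.4, 18.2, 28.3 and 81.4 CPM in WT and 3.95, 0, 1.25 and 13.7 in null, lateral plate mesoderm markers to 236, 252, 249 and 227 against 219, 231, 187 and 270, and mesothelium markers to 123, 43.1, 82.9 and 67.6 against 81.2, 43.0, 32.4 and 42.5. Their part in the *Bmp4* difference was not tested. The pair was taken for its low p, and over all types at E9.5 the genotypes did not overlap in 9.51% of tests over all genes. At E8.5 the null libraries of Mesenchyme lay on either side of the WT libraries for *Bmp4*.

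The other member and type pairs with the lowest p at E9.5 lay beyond the library ranges in several cases but did not pass the adjusted threshold. *Bmp5* in Cranial mesoderm was at 6.61, 8.84, 7.79 and 5.91 CPM in null against 12.1, 10.2, 12.2 and 12.4 in WT (-0.66, edgeR adjusted p = 0.502). *Bmp7* in Pharyngeal endoderm was at 27.7, 30.5, 33.4 and 31 CPM in null against 43.7, 48 and 34.8 in WT (-0.46, adjusted p = 0.509), and in Limb ectoderm it was at 60.6 and 50.1 against 92.8 and 91.3 (-0.69, 0.644). In these 3 pairs, taken for their low p, no null library reached a WT library. Over all types at E9.5 the genotypes did not overlap in 10.3% of member tests and in 9.51% of tests over all genes. Limb ectoderm had 2 libraries against 2, and in Placodal ectoderm, with as few, the share over all genes was 34.5%. *Id1* in Hindbrain floor plate was at 54.4, 43.7, 46.5 and 45 CPM in null against 79.2, 51.5, 68 and 65.5 in WT (-0.47, adjusted p = 0.0835), where the ranges overlapped, and *Id3* in Dorsal spinal cord progenitors was at 414, 403, 329 and 399 against 470, 459, 435 and 499 (-0.25, 0.133), where they did not. *Smad7* in Hindbrain neural progenitors was at 23, 15.8, 14.7 and 7.27 CPM in null against 25.8, 27.1, 27.5 and 23.1 in WT (-0.59, 0.312). *Smad6* in Embryo proper mesothelium was higher in null, at 13, 12.2, 12.3 and 12 CPM against 8.25, 9.92, 7.3 and 8.33 (0.57, 0.739), as was *Msx2* in Optic vesicle, at 2.25, 2.43, 2.59 and 2.92 CPM against 1.55, 0.92, 1.12 and 1.42 (1.00, 0.463).

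At E8.5 Erythroid cells had the largest member differences, at low levels. *Id3* was at 15.1 and 35.0 CPM in WT and 9.92 and 7.16 in null (-1.45, edgeR adjusted p = 0.358), *Id2* at 4.75 and 10.9 against 2.97 and 2.39 (-1.45, 0.292), *Id1* at 8.07 and 20.3 against 6.06 and 7.55 (-1.08, 0.494) and *Bmp2* at 5.38 and 6.30 against 2.89 and 4.37 (-0.81, 0.395). The null libraries were lower than both WT libraries for each of these 4 genes, which were taken for their low p, and WT B stood above WT A. Over E8.5 the genotypes did not overlap in 42 of 143 member tests (29.4%), against 32.4% of tests over all genes. The summed markers of the non-blood lists moved alike, at 62.1 and 126 CPM in WT and 48.4 and 48.9 in null, beside 24463 and 19014 CPM of erythroid markers in WT and 20171 and 15008 in null. Their part was not tested. With all libraries of the type in 1 fit *Id2* and *Id3* were called, DESeq2 called *Id3*, and no filter called *Id2*. Outside Erythroid *Id2* was at 259 and 307 CPM in null against 202 and 220 in WT in Cardiopharyngeal progenitors FHF (0.43, 0.843) and at 263 and 301 against 353 and 342 in Migratory neural crest (-0.28, 0.784). In Thyroid primordium *Id3* was at 854 and 1164 CPM in null against 632 and 751 in WT (0.55, 0.887) and *Smad7* at 105 and 147 against 82.4 and 67.8 (0.70, 0.993).

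At E7.5 the lowest p of *Bmp7* was in Mesenchyme, with 17.4 and 17.7 CPM in null against 28.7 and 24.5 in WT (-0.57, edgeR adjusted p = 0.926). In Intermediate mesoderm *Id2* was at 18.2 and 10.7 CPM against 24.4 and 24.1 in WT (-0.56), *Smad7* at 17.5 and 12.1 against 18.7 and 38.3 (-0.78, 0.949) and *Msx2* at 7.03 and 12.8 against 10.5 and 24.1 (-0.98). The libraries of a genotype may hold embryos of different size groups, whose part was not tested. WT A and WT B differed more than the genotypes did for *Smad7* and *Msx2*, and without WT A, which leaves 1 WT library whose spread is assumed to be that of the other groups, 3 of 59 tests were called lower in null (0.326% of tests over all genes were called in either direction), *Msx2* and *Smad7* in Intermediate mesoderm and *Id2* in Blood progenitors.

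The second question was how the genes changed with stage within a WT cell type. Stage and the embryos pooled for it cannot be told apart beyond the spread between libraries. From E7.5 to E8.5 only Mesenchyme and Lateral plate mesoderm could be tested, and 7 of 20 member tests were called, 2 higher and 5 lower (35%), where 8.55% of tests over all genes were called (5.24% higher and 3.3% lower). By adjusted p alone 12 of the 20 passed, against 19.5% over all genes. In Mesenchyme *Id2* rose from 30.2 and 44 CPM to 193 and 180 (log2 fold change 2.38, edgeR adjusted p = 1.92e-07) and *Id1* from 64.9 and 72.3 to 195 and 180 (1.48, 1.61e-06). *Bmp4* in the same cells was at 241 and 212 CPM and then at 254 in both libraries (0.19, 0.239). *Bmp7* fell in both types, in Mesenchyme from 28.7 and 24.5 CPM to 5.74 and 11.1 (-1.63, 0.00116) and in Lateral plate mesoderm from 30.1 and 32.5 to 3.53 and 9.73 (-2.16, 0.000107). These 4 calls were kept without each library in turn, in 1 fit over all libraries of the type. In Lateral plate mesoderm *Bmp2* fell from 18.9 and 45.3 CPM to 3.02 and 5.12 (-2.99, 0.0201), *Smad6* from 31.1 and 24.7 to 11.6 and 7.17 (-1.44, 0.00125) and *Msx2* from 93.2 and 82 to 29.7 and 28.2 (-1.5, 2.91e-06). The *Bmp2* call was lost without E8.5 WT A (adjusted p = 0.053), the *Smad6* call without E8.5 WT B (0.13), and the *Msx2* call already with all libraries of the type in 1 fit (adjusted p of 0.384 to 0.504 with each library left out of it).

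From E8.5 to E9.5, with 31 types tested, 27 of 232 member tests in WT cells were called (11.6%), 13 higher and 14 lower, where 3.19% of tests over all genes were called (2.17% higher and 1.02% lower). By adjusted p alone 62 passed, 29 higher and 33 lower, against 9.64% of all tests (4.48% higher and 5.16% lower). The genes went different ways. *Smad7* was called higher in 5 types and lower in 0, passed the adjusted p alone in 15 types, all higher, and was higher in 23 of 31. *Id1* was called lower in 3 types, passed the adjusted p alone in 13 types, all lower, and was lower in 24 of 31. *Id3* was lower in 27 of 31 types and called lower in 2, *Bmp2* was called lower in 3, *Bmp4* higher in 4, *Bmp5* higher in 2 and lower in 2, *Id2* lower in 1, and *Msx2* higher in 2 and lower in 3. *Bmp7* (lowest adjusted p 0.063) and *Smad6* were called in 0 types.

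**Figure D5:**
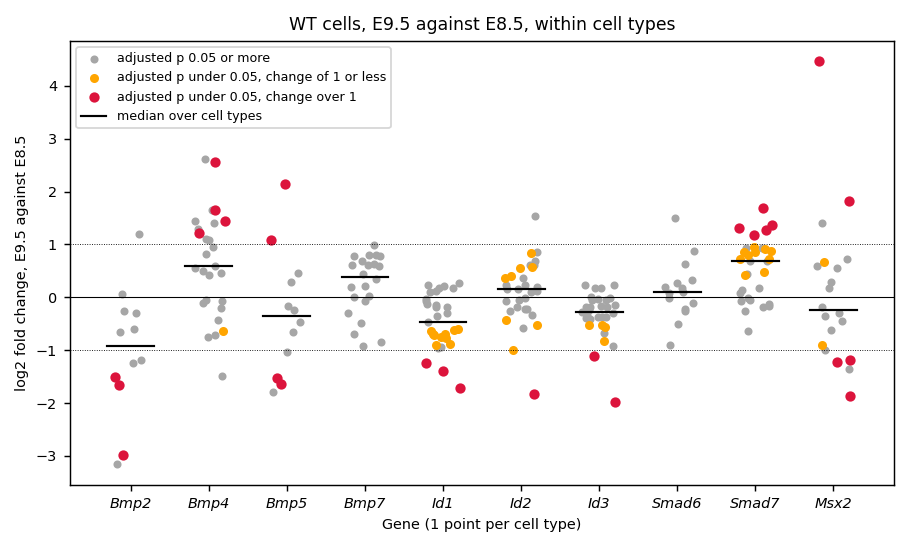
Each point is the log2 fold change from E8.5 to E9.5 (y axis) of 1 gene (x axis) in 1 WT cell type, with bars at the median over types and dotted lines at a change of 1. Red points passed the adjusted p of 0.05 with a change over 1 and orange points passed the adjusted p alone: those of *Smad7* all lie above 0 and those of *Id1* all below.

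Among the ligands the *Bmp4* increase in Cranial mesoderm was the largest called increase. The level was at 11.7 and 7.07 CPM at E8.5 and at 66, 59.4, 76.4 and 57.7 at E9.5 (a log2 change of 2.57, SE 0.26, adjusted p = 2.58e-09 by edgeR), and the call was kept without each library in turn. The limb mesoderm markers of those cells summed to 558 and 455 CPM at E8.5 and then to 837, 864, 959 and 778. In Limb mesoderm itself, in WT, they summed to 885 to 940 CPM at E8.5 and to 1018 to 1184 at E9.5. Their part was not tested. *Bmp4* was also called higher in Cardiopharyngeal progenitors SHF (33.6 and 27.8 CPM, then 62.3, 121 and 86.6), in Sclerotome (5.91 and 9.59, then 23, 16.7, 30.1 and 27.8) and in Placodal ectoderm (21.6 and 24.2, then 53 and 62.1), but none of these 3 passed with all libraries of the type in 1 fit. In Mesenchyme, its highest type, *Bmp4* fell by 0.64 on the log2 scale, which passed the adjusted p (0.000246) but not the fold requirement. *Bmp2* fell in Mesenchyme from 137 and 99.8 CPM to 44.3, 30.7, 35.4 and 64 (-1.51, 0.0148, and 0.127 without E8.5 WT A) and in YS mesothelium from 39.3 and 39.9 to 7.98, 12.4 and 16.3 (-1.67, 0.000178), where the call was kept without each library. In Placodal ectoderm *Bmp2* was at 14.4 and 19.4 CPM and then at 0 and 4.44 (-2.97, 0.00516), a call that DESeq2 did not make and that was lost without E8.5 WT A, E8.5 WT B or E9.5 WT A (adjusted p up to 0.305). *Bmp5* rose in Allantois, from 3.67 and 3.41 CPM to 18, 21.8 and 15.4 (2.14, 0.0164, up to 0.202 without either E8.5 library), and fell in Limb mesoderm, from 14.9 and 15.7 to 3.57, 4.6, 6.25 and 6.61 (-1.65, 0.000951, up to 0.212 with 5 of the 6 libraries left out in turn). The remaining *Bmp5* calls, higher in Sclerotome (4.55 and 8.63, then 14.4, 12.5, 15.1 and 13.2 CPM) and lower in Optic vesicle (3.68 and 7.84, then 2.66, 0.736, 2.61 and 3.16), were each lost without at least 3 of the libraries in turn (adjusted p up to 0.613 and 0.546).

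The *Id* genes were called lower in neural crest, limb ectoderm, optic vesicle and yolk sac mesothelium. *Id1* in Migratory neural crest was at 275 and 285 CPM at E8.5 and at 87.9, 84, 87.8 and 119 at E9.5 (-1.72, SE 0.12, edgeR adjusted p = 5.17e-07). In Branchial arch neural crest it was at 788 and 800 CPM and then at 359, 416, 265 and 342 (-1.39, 0.0023), and in Limb ectoderm at 348 and 372 and then at 150 and 175 (-1.25, 0.000258). All 3 were kept without each library in turn. In Migratory neural crest the neural crest markers summed to 516 and 552 CPM at E8.5 and then to 470, 515, 448 and 372, and the spinal cord markers to 81 and 55.7 and then to 253, 204, 286 and 181. Their part was not tested. *Id3* fell in Optic vesicle from 590 and 624 CPM to 375, 276, 265 and 363 (-1.11, 0.00158), and the change was 1.00 in size with library totals in place of trimmed-mean scaling, just under the requirement. In YS mesothelium *Id2* was at 79.1 and 47.7 CPM and then at 16.7, 13.1 and 26 (-1.82, 0.00111, and 0.0854 without E8.5 WT A) and *Id3* at 106 and 96.6 and then at 26.1, 12.4 and 37.2 (-1.98, 0.0147, not called with all libraries of the type in 1 fit). Marker sums of that label also differed between stages, with mesothelium markers at 57.8 and 16.7 CPM and then at 448, 322 and 237, and surface ectoderm markers at 2520.35 and 2804 and then at 1505, 1739 and 1556, and their part in the *Bmp2*, *Id2* and *Id3* results was not tested.

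*Smad7* rose in neural and ectodermal types and in the somite. In Dorsal spinal cord progenitors it was at 8.72 and 4.45 CPM at E8.5 and at 25, 24.8, 26.9 and 23 at E9.5 (1.69, SE 0.23, edgeR adjusted p = 1.11e-05), and in Ventral hindbrain progenitors at 9.11 and 6.42 and then at 28.8, 22.8, 25.9 and 17.4 (1.37, 0.000174). Both calls were kept without each library in turn. In Surface ectoderm *Smad7* was at 33.7 and 25.7 CPM and then at 91.7, 85.8 and 60 (1.28, 0.00218, and 0.16 without E8.5 WT B). In Dermomyotome it was at 13 and 10.2 and then at 29.2, 34.7, 36.6 and 26.8 (1.32, 0.0124, up to 0.28 without either E8.5 library), and in Placodal ectoderm at 17.5 and 10.9 and then at 34.6 and 36.6 (1.17, 0.0341, up to 0.264 without E8.5 WT B, E9.5 WT A or E9.5 WT D), neither of which DESeq2 called. *Msx2* was called higher in Dorsal spinal cord progenitors, from 1.56 and 1.78 CPM to 8.39, 5.03, 9.29 and 3.33 (1.82, 0.0114, up to 0.158 without either E8.5 library or E9.5 WT A). It was called lower in Migratory neural crest (13.4 and 24.9, then 9.92, 5.36, 2.48 and 4.78 CPM), Presomitic mesoderm (42.5 and 51.4, then 19.5 and 25.1) and Pharyngeal endoderm (25.8 and 32.9, then 11.8, 24 and 10.2). With all libraries of the type in 1 fit the first and last of these were not called, and Presomitic mesoderm was not called without either E8.5 library or E9.5 WT A (adjusted p up to 0.152) nor by DESeq2. In Thyroid primordium *Msx2* was at 3.05 and 0 CPM and then at 40.2, 57 and 32.8, which rests on 1 UMI at E8.5 against 64 at E9.5 (ratio 27.5, 95% exact counting interval 4.76 to 1102, for counting error only). The ectodermal marker *Tfap2a* in the same libraries was at 3.05 and 2.95 CPM and then at 40.2, 44.1 and 16.4, and its part was not tested. Of the 27 calls, 8 were kept without each library in turn.

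The median gene also moved between stages when levels were averaged over the 18 WT types shared by the libraries of both, by 0.186 on the log2(CPM + 1) scale with library totals and by 0.108 with trimmed-mean scaling. The limma test was of a change from 0, which 51.1% of all 11114 genes passed at an adjusted p of 0.05. *Smad7* rose by 0.83 and *Bmp4* by 0.69 (adjusted p = 0.0005 for both), and *Id1* fell by 0.27 (0.0041) and *Bmp2* by 0.58 (0.0152). *Bmp7* rose by 0.41 (0.0219) and *Id2* by 0.25 (0.0100), neither of which passed with trimmed-mean scaling (0.0542 and 0.0640), whereas *Id3* changed by -0.12 (0.146) and passed with it (-0.21, 0.0261). Relative to the median gene, which was not tested, the changes were 0.65 for *Smad7*, 0.51 for *Bmp4*, 0.23 for *Bmp7*, 0.06 for *Id2*, -0.31 for *Id3*, -0.46 for *Id1* and -0.77 for *Bmp2*.

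The stages were also compared in the null libraries, whose cells were sorted from the same chimaeras as the WT cells, so the embryos are not independent of those above. From E8.5 to E9.5, 16 of 154 member tests in null cells were called (10.4%), 11 higher and 5 lower, where 2.88% of all tests were (1.99% higher and 0.895% lower). Unlike the WT calls, these were not repeated with a library left out, with DESeq2 or with other filters. *Bmp4* rose in Cranial mesoderm, from 14.4 and 4.08 CPM to 51.4, 59.5, 51.3 and 46.7 (1.91), and in Pharyngeal endoderm, from 28.5 and 7.8 to 91.9, 104, 120 and 111 (2.04), and fell in Mesenchyme, from 246 and 309 to 139, 109, 138 and 139 (-1.20), and in Amniotic ectoderm, from 100 and 88.2 to 60 and 38 (-1.01). *Bmp5* rose in Sclerotome (1.18) and fell in Pharyngeal endoderm (-1.78). *Id1* in Migratory neural crest went from 200 and 333 CPM to 129, 114, 143 and 122 (-1.24). *Id2* rose in Hindbrain floor plate, from 24.7 and 30.9 CPM to 55.7, 61.8, 63.6 and 54.2 (1.01), *Id3* fell in Optic vesicle from 563 and 590 CPM to 372, 327, 268 and 327, and *Msx2* rose at the Midbrain/Hindbrain boundary (2.34) and in Cranial mesoderm (1.51). *Smad7* was called higher in 5 types, by 1.95 in Spinal cord progenitors, 1.54 in Ventral hindbrain progenitors, 1.52 in Dorsal spinal cord progenitors, 1.16 in Migratory neural crest and 1.09 at the Midbrain/Hindbrain boundary. Averaged over the 12 null types shared by the libraries of both stages, *Smad7* (1.00), *Bmp4* (0.96) and *Id2* (0.38) rose and *Id3* fell (-0.18, limma adjusted p = 0.0392), where 47.3% of all genes passed, while *Bmp2* (-0.26, 0.151), *Id1* (-0.17, 0.0806) and *Bmp7* (0.12, 0.564) did not pass. With trimmed-mean scaling *Id1* passed too (-0.26, limma adjusted p = 0.0161). The median gene rose by 0.212 with library totals and by 0.124 with trimmed-mean scaling. The 12 null types are not a subset of the 18 WT types above, so the averages of the 2 genotypes are not to be compared directly. The test of the difference itself, an interaction of stage and genotype, called 0 of 150 member tests in 18 types (0.00808% of all tests), with 13 at an unadjusted p under 0.05 (8.67%, against 3.39% over all genes).

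Other genes of the pathway were counted from a list of 48: 10 ligands, 8 receptors, 4 signal transducers, 13 antagonists and 13 targets. Between null and WT 0 of 148 tests were called at E7.5, 0 of 382 at E8.5 and 1 of 782 at E9.5 (0.128%, near the 0.12% over all genes). That 1 was *Bambi*, a transmembrane pseudoreceptor that blocks BMP signalling, in Placodal ectoderm, at 8.66 and 6.65 CPM in WT and 27.1 and 18.8 in null (a log2 change of 1.65, SE 0.40, adjusted p = 0.0364 by edgeR); in the fit of all libraries of the type it had 0.0622, and with a library left out of that fit 0.018 to 0.65, called only without null B, which leaves 1 null library. From E7.5 to E8.5 in WT, 14 of 54 tests were called (25.9%, against 8.55% over all genes), 5 higher and 9 lower (5.24% and 3.3% over all genes). Among them, in Mesenchyme the antagonist *Fst* (2.21) and the target *Id4* (4.47) rose, and in Lateral plate mesoderm *Fst* (-3.07) and *Hand1*, a transcription factor of extra-embryonic mesoderm, fell, the latter from 769 and 619 CPM to 101 and 133 (-2.48).

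From E8.5 to E9.5 in WT, 60 of 656 tests of the list were called (9.15%, against 3.19% over all genes), 37 higher and 23 lower (2.17% and 1.02% over all genes). Receptors were called higher in 9 of 165 tests and lower in 1, and *Bmpr1b*, a type I BMP receptor, made up 6 of those, among them Dorsal spinal cord progenitors, from 0.623 and 0.445 CPM to 15, 8.65, 13 and 5.56 (4.09). Ligands were called higher in 2 of 29, and signal transducers in 0 of 96. Antagonists were called higher in 7 and lower in 11 of 155, with follistatin (*Fst*) in Sclerotome falling from 271 and 257 CPM to 62.5, 77.3, 61.5 and 72 (-2.10). Targets were called higher in 19 and lower in 11 of 211, with *Id4* rising in 4 neural types, in Optic vesicle from 2.34 and 1.89 CPM to 41.8, 37.9, 48.4 and 34.9 (4.08). In null cells 32 of 427 tests were called over the same stages (7.49%, against 2.88% over all genes), 29 higher and 3 lower, and the interaction called 0 of 439.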

How the data were processed

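Droplet 3′ single-cell RNA-seq libraries were aligned by the authors with Cell Ranger to mm10 with the tdTomato sequence added. The authors deposited the UMI counts per gene and cell, and, for each cell, its library, stage, sort, doublet call (score over 1), mitochondrial percent and a cell type transferred from an atlas by 25 nearest neighbours. The deposited counts are not normalized. CPM here is relative to all UMIs of 1 cell type in 1 library. Library names match no sample title, so groups follow stage and sort. The tdTomato transgene, *Tsix*, *Xist*, genes of the Y chromosome and haemoglobin, ribosomal, mitochondrial and predicted genes were left out of the tests, close to a filter of the study that also removes imprinted genes, which were kept here. Tests used edgeR 4.0.16, limma 3.58.1 and DESeq2 1.42.0 in R 4.3.3 (genes filtered with filterByExpr, TMM scaling, Benjamini-Hochberg adjustment within a type), and were tested on simulated data. In the averages over types the pseudocount was 1 CPM, and fold changes on that scale understate changes of low genes. The members and lists were chosen with earlier results of these data known. A member in a type is named where it was called or among its 3 lowest p, and types among the 5 highest or 3 lowest levels; pairs among these are given by count where not described. Some called genes of the pathway list are counted but not reported by name here. Alternatives are other scaling, filters, cell minimums and tools, and leaving out each library in turn from a fit over all libraries of the type, which was chosen after seeing the data. Where this left 1 library in a group, it was assumed to vary like the other groups. Intervals on counts cover counting error only.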

Additional observations from a re-analysis of the deposited data

Results flagged for a closer look

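The 30 groups of 4 libraries checked for a library far from the other 3 were each member's level averaged over cell types in E9.5 WT and in E9.5 null, and its CPM in its highest E9.5 WT type. In 2 of the 30 a library stood apart, and chance alone marks about 1 in 20. Among the E9.5 null libraries *Id2* was at 7.68 in null B and at 7.53 to 7.54 in the others, and *Smad6* was at 2.27 in null B and at 2.42 to 2.44 in the others, on the log2(CPM + 1) scale. Null B was the highest library for *Id2* and the lowest for *Smad6*.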

How the results depend on the processing

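Calls need an adjusted p under 0.05 and a log2 change over 1. By adjusted p alone the calls were 2 for null against WT at E9.5, 12 for E8.5 against E7.5 and 62 for E9.5 against E8.5 (0.271%, 19.5% and 9.64% of tests over all genes). With no filter on low counts null against WT gave 1 call in 70 tests in E7.5 and 2 in 200 in E8.5 cells, and the interaction 1 in 180 (0.271%, 0.175% and 0.0380% over all genes). DESeq2 gave 1 and the fit of all libraries of a type gave 2 at E8.5 (0.0692% and 0.0680% over all genes). With more than 50 cells required, E9.5 against E8.5 gave 12 calls in 88 tests of 11 types, where 4.18% of tests over all genes were called. Leaving out 1 library at a time gave 0 to 3 calls at E7.5 (3 of 59 without WT A, 0.326% over all genes), 0 to 3 at E8.5 (3 of 176 without WT A, 0.0564%), 0 to 1 at E9.5 (null B) and 0 to 1 for the interaction (E8.5 WT B or E9.5 null B). The stage counts ranged from 5 to 8 for E8.5 against E7.5 and from 13 to 23 for E9.5 against E8.5 (13 without E8.5 WT B, 16 without E9.5 WT A, 17 without E8.5 WT A or E9.5 WT C), and the share called over all genes moved too, to 3.97% without E8.5 WT A in the former and 1.22% without E8.5 WT B in the latter. With every library in, the same fits gave 6 calls in 20 tests and 21 in 254 for the 2 stage comparisons (8.04% and 2.84% over all genes).

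Averaged over types, *Bmp4*, *Smad7* and *Smad6* kept their direction in all 22 alternatives, and *Bmp2* in the 21 in which it was tested. The *Bmp4* difference ran from -0.354 to -0.056 (limma adjusted p 0.0567 to 0.818), the smallest with all cells of a library summed. It was largest in size with more than 50 cells required, which left 0 types at E7.5, 3 at E8.5 and 6 at E9.5. The main setting had 7, 20 and 20 types. The difference changed sign with more than 50 cells required for *Bmp5* (0.133) and *Id3* (-0.120), with all cells of a library summed for *Bmp5* (0.0907), *Bmp7* (0.0420) and *Id1* (0.0443), without null-sorted cells that lack a tdTomato UMI for *Bmp5* (0.0239), *Id1* (0.000526) and *Id2* (0.0123), and with TMM factors for *Id1* (0.00702). Leaving out 1 library gave -0.0575 to 0.0274 for *Id1* and -0.00795 to 0.221 for *Msx2*. The cause was not tested, and none of these differences passed an adjusted p of 0.05.

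Of the 10 members, the highest WT type was the same in 6, 4 and 3, in stage order, with more than 50 cells required, which leaves 6, 14 and 9 types, and in 6 to 7, 6 to 10 and 6 to 9 with 1 library left out (6 without E7.5 WT A, E8.5 WT A or E9.5 WT C). Leaving out these libraries also raised the types compared, from 11 to 18, 36 to 53 and 25 to 32, so library and set of types changed together. No paired analysis was possible because the library names carry no embryo pool that links null to WT. Depth limits the low genes most, with a few UMIs per library behind levels under 1 CPM.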
